A study of Homo sapiens with 24 samples.

Results

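The genes described here are TXNIP, ARRDC2, ARRDC3, ARRDC4, DDIT4, PDK4, PIK3IP1, SESN1, SESN3 and C10orf10 (now named DEPP1), 10 genes of arrestin-fold proteins and FOXO-type brakes on nutrient use and growth signaling. Members are matched by gene symbol, and the list of symbols was drawn up with earlier results of these data known. The count table holds 22 RefSeq transcripts of these genes among 64519, of which 8 transcripts from 7 genes passed the filter on low counts and were tested among 10167. The 8 are TXNIP NM_006472 and NM_001313972, ARRDC2 NM_001025604, ARRDC4 NM_183376, DDIT4 NM_019058, SESN1 NM_014454, SESN3 NM_144665 and C10orf10 NM_007021.

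The measurements are RNA-seq counts from Nalm6, an established human cell line of B-cell precursor acute lymphoblastic leukemia. The cells had been transduced with lentivirus carrying an shRNA against G9a, GLP or HP1γ, or a control shRNA of non-specific sequence (shNS). They were selected with puromycin, so each library comes from a pool of resistant cells and not from a clone. Each of the 4 populations received 100 nM dexamethasone (dex), a synthetic ligand of the glucocorticoid receptor (GR), or the same volume of its vehicle ethanol, for 8 h. There were 3 replicates of each of the 8 groups, made on different days, which gives 24 libraries. The design asks how much of the dex response depends on the methyltransferases G9a and GLP and on HP1γ, a protein that binds methylated lysines.

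TXNIP and the ARRDC proteins are alpha-arrestins. They share the arrestin fold, and several of them bring ubiquitin ligases to membrane proteins. TXNIP also binds thioredoxin and lowers glucose uptake, and its gene is switched on by the glucose sensor MondoA (MLXIP). DDIT4 (REDD1) and the sestrins restrain mTORC1, PIK3IP1 restrains PI3K, and PDK4 turns off pyruvate dehydrogenase. Several of these genes are textbook targets of FOXO factors, which enter the nucleus when AKT signaling is low. Glucocorticoids are known to raise TXNIP, DDIT4 and PDK4 in lymphoid or muscle cells.

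The sequences below are the 250 bases before the RefSeq transcription start of the 4 genes whose transcripts changed with dex in shNS cells. They are shown because TXNIP, C10orf10 and DDIT4 rose and ARRDC4 fell. Each is written 5′ to 3′ on the gene's own strand and was found once in the GRCh37 genome. Their positions are chr1:145438240-145438489 (plus strand) for TXNIP, chr10:45474258-45474507 (minus strand) for C10orf10, chr10:74033432-74033681 (plus strand) for DDIT4 and chr15:98503683-98503932 (plus strand) for ARRDC4. Capitals mark the FOXO core GTAAACA in TXNIP and C10orf10, a pair of CACGNG hexamers with 5 bases between them in TXNIP, and the E-box CACGTG in ARRDC4.
TXNIP: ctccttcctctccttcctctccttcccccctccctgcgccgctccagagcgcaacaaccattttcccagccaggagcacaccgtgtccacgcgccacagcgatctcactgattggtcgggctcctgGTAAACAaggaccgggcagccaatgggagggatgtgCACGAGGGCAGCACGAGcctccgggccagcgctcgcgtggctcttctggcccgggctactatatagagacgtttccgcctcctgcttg
C10orf10: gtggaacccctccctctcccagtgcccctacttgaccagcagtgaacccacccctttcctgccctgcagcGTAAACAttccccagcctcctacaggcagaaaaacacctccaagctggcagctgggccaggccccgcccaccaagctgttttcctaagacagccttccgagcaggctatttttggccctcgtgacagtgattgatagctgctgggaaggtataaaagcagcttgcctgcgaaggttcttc
DDIT4: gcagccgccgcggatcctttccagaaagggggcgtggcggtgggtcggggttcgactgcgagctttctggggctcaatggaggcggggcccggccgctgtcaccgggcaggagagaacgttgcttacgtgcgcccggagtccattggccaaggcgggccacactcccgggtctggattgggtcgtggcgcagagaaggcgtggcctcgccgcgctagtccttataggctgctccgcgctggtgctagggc
ARRDC4: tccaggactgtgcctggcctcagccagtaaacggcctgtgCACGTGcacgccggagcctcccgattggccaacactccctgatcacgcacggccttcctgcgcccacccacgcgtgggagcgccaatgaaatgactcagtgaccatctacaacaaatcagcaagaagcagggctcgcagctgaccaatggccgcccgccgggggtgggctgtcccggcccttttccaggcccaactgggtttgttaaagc

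The letters were searched on both strands in windows from 250 bases before to 50 bases after the start, after the member windows had been read. The 10 genes have 16 such windows in the RefSeq table. GTAAACA was present in 4 of the 16, 1 each of TXNIP, C10orf10, ARRDC3 and PIK3IP1, and in 3.42% of all 35116 windows. In TXNIP it lies from base -124 to base -118 and in C10orf10 from base -180 to base -174, counted from the start site. The spaced hexamers, the arrangement known for MondoA partners, occurred in TXNIP among the members, from base -88 to base -72, and in 20 windows in all (0.06%). CACGTG occurred in ARRDC4, from base -210 to base -205, and in 7.26% of windows. A full GR palindrome (AGAACA, any 3 bases, TGTTCT) was in no member window and in 1 window in all, and the hexamer AGAACA alone was in 3 of the 16 member windows, of PDK4 and PIK3IP1, and in 14.79% of windows. A match of letters is a description of these windows only.

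The 10 genes lie on 9 chromosomes of GRCh37, and only C10orf10 and DDIT4 share one. In the GENCODE annotation lifted to that build, C10orf10 (chr10:45466429-45474257, minus strand) lies inside the span of RASSF4 on the plus strand, and 695 of its 2979 exonic bases are also exonic in RASSF4. Whether the counting used strand is not given in the sources used here, so reads of C10orf10 and RASSF4 in those bases cannot be told apart. Shared exonic bases with antisense RNAs were 442 for ARRDC2, 363 for SESN1, 145 for ARRDC3, 98 for SESN3 and 36 for PIK3IP1.

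Library totals ran from 9289533 to 14387770 counts with a median of 11132064.5. Single transcripts of genes with several RefSeq transcripts were often listed at 0. Transcripts at 0 in every library made up 26.3% of those from genes with 1 transcript in the table and 81.8% of those from genes with 4 or more. Genes with all of their transcripts at 0 differed less, 26.3% of genes with 1 transcript, 30.8% with 2 to 3 and 32.9% with 4 or more. The median summed count was 111493 for ACTB, which has 1 transcript, but 49 for the 4 transcripts of GAPDH and 0 for the 3 of SDHA. A value of 0 for a gene with several transcripts is therefore given as listed at 0. Of 13 markers of precursor B cells, 5 had a median count of at least 10, with RAG1 at 20334, while CD79B, CD22 and DNTT were listed at 0. The summed normalized CPM of these markers was 1580 to 1830 in shNS, 2170 to 2920 in shG9a, 2270 to 2710 in shGLP and 1180 to 1730 in shHP1γ libraries. The 7 myeloid markers, with CSF1R, ITGAM and ELANE at 0, summed to 20.5 to 34.1 CPM in shGLP against 2.91 to 7.82 CPM in shNS libraries, and their part in the shGLP results was not tested.

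The transcript of G9a was not analysed here. EHMT1 (GLP, NM_001354259) had a mean of 2.55 CPM ± 0.46 (SD, n = 3) in dex-treated shGLP cells against 3.31 ± 0.558 in shNS cells, and the difference was not called (log2 -0.37, SE 0.21, adjusted p = 0.41, edgeR). In ethanol the EHMT1 difference was -0.65 (SE 0.21, adjusted p = 0.0923, edgeR), and the 2 groups did not overlap. CBX3 (HP1γ) was -0.61 for NM_016587 (SE 0.22, adjusted p = 0.142) and -0.15 for NM_007276 (SE 0.24, adjusted p = 0.842) in dex-treated shHP1γ cells. So neither depletion passed the test at the RNA level with these transcripts, each of which had between 18 and 82 counts per library. Of the 6 EHMT1 transcripts in the table, 5 were listed at 0. Counts this low cannot decide how far the target genes were depleted. The paper reports efficient depletion of each target, as protein and as mRNA, by immunoblot and RT-qPCR in the cells used for sequencing.

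Of the 8 tested member transcripts, 7 exceeded 1 CPM in all 24 libraries, and dex changed 4 of these 7 in shNS cells. TXNIP NM_006472, DDIT4 and C10orf10 rose, and ARRDC4 fell (edgeR's quasi-likelihood F test, called at a Benjamini-Hochberg adjusted p no larger than 0.05 over all 10167 transcripts). Over all tested transcripts, 4.49% were called higher and 5.46% lower. The share of calls that were higher was 45.2% with the upper quartile factors used here and 56.5% with TMM factors. The median log2 fold change was 0.25 over the 7 member transcripts and -0.03 over all. The other tested transcript, TXNIP NM_001313972, exceeded 1 CPM in 9 of the 12 dex libraries and 0 of the 12 ethanol libraries. It passed the filter through the group in which it was high, so its dex response is given without a test and is left out of the counts and medians. In a bulk sample, a larger share of responding cells and more RNA per responding cell cannot be told apart.

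The same 3 genes rose in each depleted population. In shG9a cells 3 transcripts were higher and 1 lower, against 3.26% and 2.98% of all transcripts. In shGLP cells 3 were higher and 0 lower, against 1.95% and 1.34%, and in shHP1γ cells 3 were higher and 0 lower, against 2.12% and 1.09%. The 3 higher transcripts were TXNIP NM_006472, DDIT4 and C10orf10 each time, and the lower one in shG9a cells was ARRDC4.

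**Figure D1:**
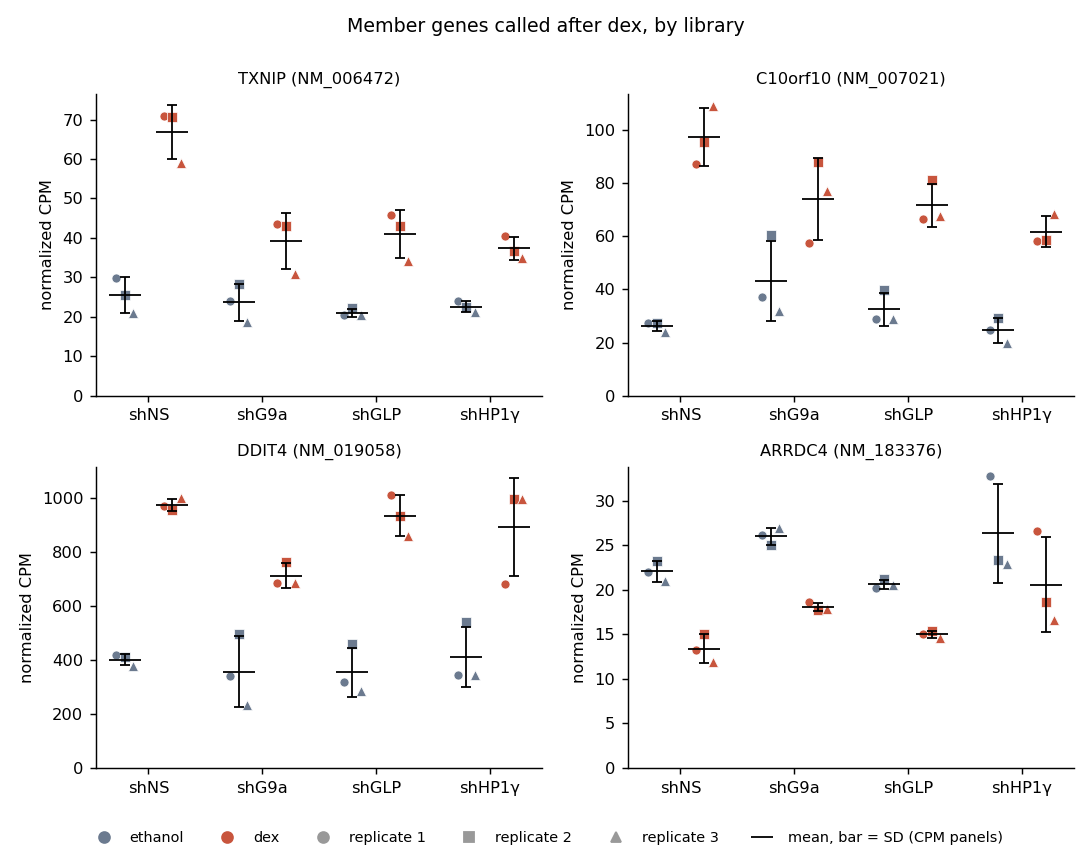
Normalized CPM (y axis, linear, from 0) of TXNIP, C10orf10, DDIT4 and ARRDC4 in the 24 libraries by shRNA (x axis), with ethanol in grey, dex in red, symbols for the 3 replicates, and the mean with SD. All 3 shNS dex libraries of TXNIP lie between 58.9 and 70.8 CPM, above each of the 9 dex libraries of the depleted cells.

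TXNIP NM_006472 (gene at chr1:145438490-145442635, plus strand) was the one member called lower in dex in all 3 depleted populations. In ethanol-treated shNS cells its 3 libraries held 29.9, 25.6 and 20.9 CPM, and in dex-treated shNS cells 70.8, 70.7 and 58.9 CPM. In dex-treated depleted cells the libraries held 43.4, 43.1 and 30.9 CPM for shG9a, 45.9, 43.0 and 34.2 CPM for shGLP, and 40.6, 36.6 and 35.0 CPM for shHP1γ. None of the 9 libraries overlapped the shNS dex libraries. The log2 fold change with dex was 1.40 (SE 0.10, adjusted p = 1.98e-10, edgeR) in shNS cells, a 2.63-fold rise, and each replicate rose between 2.37-fold and 2.81-fold.

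With dex, TXNIP NM_006472 stood at 58.2% ± 5.02 (SD, n = 3) of the shNS level in shG9a cells, 61.2% ± 3.34 in shGLP cells and 56.2% ± 3.99 in shHP1γ cells. Each percentage is the mean of 3 ratios between libraries of the same number. The log2 differences were -0.78 (SE 0.09, adjusted p = 6.18e-06), -0.71 (SE 0.09, adjusted p = 1.71e-05) and -0.83 (SE 0.09, adjusted p = 2.81e-06, edgeR). These 3 comparisons share the shNS dex libraries. In ethanol the groups overlapped, and the log2 differences were -0.11, -0.27 and -0.16, none of them called (lowest adjusted p = 0.205). The dex response itself was 0.72 (SE 0.10) in shG9a, 0.95 (SE 0.10) in shGLP and 0.73 (SE 0.10) in shHP1γ cells, each called. The test of the difference in response from shNS cells gave -0.67 for shG9a (adjusted p = 0.0549), -0.44 for shGLP (adjusted p = 0.631) and -0.67 for shHP1γ (adjusted p = 0.0969, edgeR), so no difference in response was called. The shG9a difference was called under 5 of the 11 alternative settings, the shHP1γ difference under 2 and the shGLP difference under 1 (only the groups compared, adjusted p = 0.0493). The fit with no filter was among them for shG9a and shHP1γ.

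TXNIP NM_001313972, the other TXNIP transcript in the table, had between 2 and 25 counts per library. In shNS cells it had 5, 6 and 2 counts in ethanol and 23, 20 and 13 in dex. The fitted dex response was 2.05 on the log2 scale (SE 0.41) in shNS cells and 1.23, 1.21 and 1.02 in shG9a, shGLP and shHP1γ cells. A difference in response from shNS cells was not detectable at this depth, since its interval for shG9a ran from -2.03 to 0.40 on the log2 scale.

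ARRDC4, another alpha-arrestin (chr15:98503933-98517063, plus strand), moved against TXNIP. Its shNS libraries held 22.0, 23.3 and 21.0 CPM in ethanol and 13.2, 15.1 and 11.9 CPM in dex, a fall in 3 of 3 replicates. The log2 fold change was -0.72 (SE 0.13, adjusted p = 0.000568, edgeR), and without replicate 3 its adjusted p was 0.0645. In shG9a cells it fell by 0.53 on the log2 scale (SE 0.13, adjusted p = 0.0133), from 26.2, 25.0 and 26.9 CPM to 18.6, 17.8 and 17.9 CPM. That call was lost under 4 of the 11 alternatives, with adjusted p values up to 0.203. The responses of -0.46 in shGLP and -0.36 in shHP1γ cells were not called (adjusted p = 0.0599 and 0.158, edgeR). Paired by replicate number, the level was lower in dex in 3 of 3 replicates of each. The ethanol and dex libraries overlapped in shHP1γ cells and did not overlap in shGLP cells. The shGLP fall was called under 4 of the 11 alternatives, with adjusted p down to 0.00775, and the shHP1γ fall under 1 (adjusted p = 0.0115), the lowest value in both cases being the fit to only the groups compared. No difference in response was called for ARRDC4.

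In dex, ARRDC4 was higher in 2 of the depleted populations than in shNS cells. The log2 difference was 0.43 in shG9a cells (SE 0.13, adjusted p = 0.0435, edgeR) and 0.61 in shHP1γ cells (SE 0.13, adjusted p = 0.00752), with no overlap of libraries in either case. In shGLP cells it was 0.16 (adjusted p = 0.634), with libraries at 15.0, 15.4 and 14.6 CPM. The shHP1γ group spread widely in dex, at 26.6, 18.6 and 16.6 CPM, and without replicate 1 its difference was 0.39 (adjusted p = 0.109). That call was also lost without replicate 3 (adjusted p = 0.13) and with only the groups compared (adjusted p = 0.0722). The shG9a call was lost without the replicate term (adjusted p = 0.122), with only the groups compared (0.164), without replicate 2 (0.108) and without replicate 3 (0.315).

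ARRDC2 (chr19:18111941-18124911, plus strand) and ARRDC3 (chr5:90664448-90679134, minus strand) gave no call. ARRDC2 NM_001025604 lay between 7.95 and 12.5 CPM in all 24 libraries. Its dex response in shNS cells was -0.12 on the log2 scale with a 95% interval from -0.36 to 0.12, and its 3 depletion differences in dex lay between -0.08 and -0.01. The other 2 transcripts of ARRDC2 and all 6 of ARRDC3 were listed at 0. ARRDC3-AS1, which starts inside the span of ARRDC3 on the other strand and shares 145 exonic bases with it, had 23 to 72 counts per library. It was looked up after the zeros were seen.

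**Figure D2:**
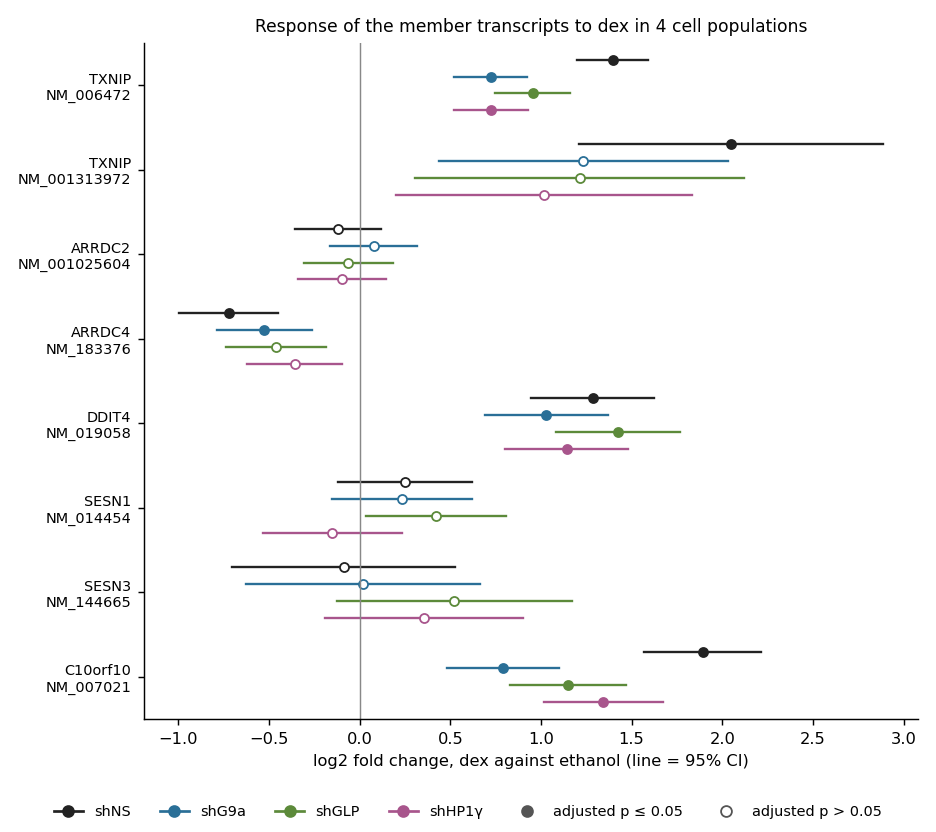
Log2 fold change of the 8 tested member transcripts with dex (x axis; lines are 95% intervals) in shNS, shG9a, shGLP and shHP1γ cells, filled where the adjusted p was at most 0.05. TXNIP, DDIT4 and C10orf10 lie right of 0 in all 4 populations, ARRDC4 lies left of 0, and ARRDC2, SESN1 and SESN3 have no filled point. TXNIP NM_001313972 passed the filter through dex libraries only, so its filled point in shNS cells is not counted as a call.

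DDIT4, an inhibitor of mTORC1 (chr10:74033678-74035794, plus strand), rose with dex in all 4 populations, and no depletion difference was called. In shNS cells its 3 libraries held 417, 409 and 378 CPM in ethanol and 970.0, 954 and 998 CPM in dex, with no overlap and a log2 fold change of 1.28 (SE 0.16, adjusted p = 6.09e-06, edgeR). The responses were 1.03 (SE 0.16, adjusted p = 0.000225) in shG9a, 1.43 (SE 0.16, adjusted p = 3.4e-06) in shGLP and 1.14 (SE 0.16, adjusted p = 7.48e-05) in shHP1γ cells. They differed from shNS cells by -0.26, 0.14 and -0.14, with intervals from -0.73 to 0.22, from -0.33 to 0.62 and from -0.62 to 0.33.

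In dex the shG9a libraries of DDIT4 held 684, 764 and 685 CPM, all below the lowest shNS library at 954 CPM. That difference, -0.46 on the log2 scale (SE 0.16), had an adjusted p of 0.0754 (edgeR). It was called with only the groups compared (adjusted p = 0.0236). With no filter on low counts it was also called (adjusted p = 1.85e-07), at nearly the same value, -0.47. The fit with no filter gives little weight to each transcript's own spread, so this call adds no separate evidence. In dex the shGLP libraries held 1010.0, 932 and 858 CPM and the shHP1γ libraries 681, 995 and 997 CPM, both overlapping shNS. The ethanol libraries of the depleted cells spread more than those of shNS cells, from 234 to 495 CPM in shG9a, from 284 to 458 CPM in shGLP and from 346 to 539 CPM in shHP1γ.

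SESN1 and SESN3, sestrins that restrain mTORC1, were not called in any of the 13 comparisons. SESN1 NM_014454 (chr6:109305512-109416049, minus strand) lay between 4.02 and 7.91 CPM, and its dex response in shNS cells was 0.25 with a 95% interval from -0.12 to 0.62. The response in shGLP cells was 0.42 (adjusted p = 0.295), with no overlap between 4.45 to 5.24 CPM in ethanol and 5.97 to 7.52 CPM in dex. The other transcripts of SESN1 had at most 12 counts in a library.

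SESN3 NM_144665 (chr11:94898677-94965705, minus strand) was at 2.58, 2.84 and 2.43 CPM in dex-treated shNS cells and at 6.47, 3.87 and 4.52 CPM in dex-treated shHP1γ cells, 28 to 33 counts against 48 to 73. The groups did not overlap, and the log2 difference of 0.89 (SE 0.27) had an adjusted p of 0.0697 (edgeR). With no filter on low counts it was 0.81 and called (adjusted p = 0.0315), in a fit that gives little weight to each transcript's own spread. In ethanol the same difference was 0.45 (adjusted p = 0.523) and the groups overlapped.

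**Figure D3:**
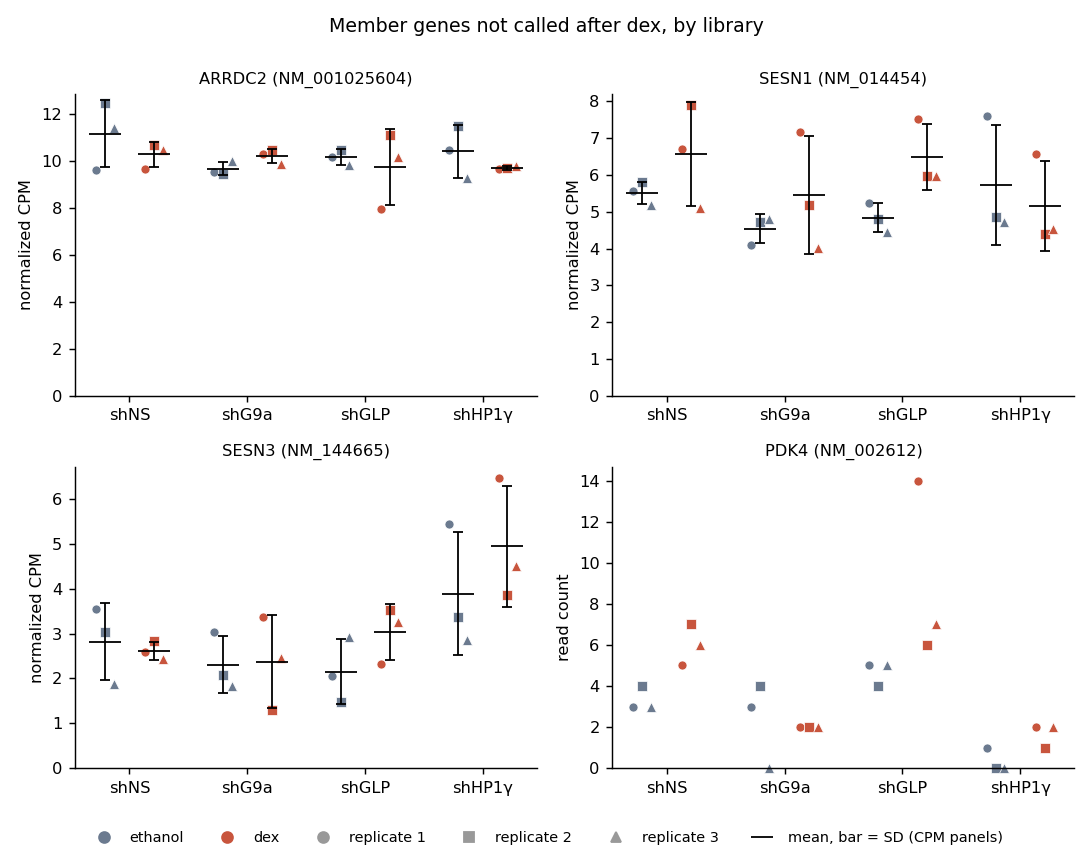
Normalized CPM of ARRDC2, SESN1 and SESN3 and read counts of PDK4 (y axes, linear, from 0) in the 24 libraries by shRNA, with ethanol in grey and dex in red; the CPM panels also show the mean with SD. ARRDC2 stays between 7.95 and 12.5 CPM, the 3 shHP1γ dex libraries of SESN3 lie above the 3 shNS dex libraries, and no PDK4 library exceeds 14 counts.

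PDK4, a pyruvate dehydrogenase kinase (chr7:95212811-95225828, minus strand), has 1 transcript in the table and had 0 to 14 counts per library, so it did not pass the filter. In shNS cells it had 3, 4 and 3 counts in ethanol and 5, 7 and 6 in dex. In shGLP cells it had 5, 4 and 5 counts in ethanol and 14, 6 and 7 in dex, while shG9a dex libraries had 2 each and shHP1γ dex libraries had 2, 1 and 2. With no filter on low counts, its dex response in shNS cells was 0.78 on the log2 scale (SE 0.62, adjusted p = 0.908, edgeR). The same fit gave -1.88 (SE 0.71, adjusted p = 0.217) for shHP1γ against shNS in dex, so no change was detectable at this depth.

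PIK3IP1 (chr22:31677580-31688520, minus strand) did not pass the filter either. Its transcript NM_052880 had 0 counts in all 3 ethanol libraries of shNS cells and 2, 1 and 4 in dex. Counting the 4 populations together, the 12 ethanol libraries held 2 counts and the 12 dex libraries 21. With no filter, the adjusted p of its dex response in shNS cells was 0.281 (edgeR). Its other transcript was listed at 0, and the antisense transcript PIK3IP1-AS1, looked up after the values were seen, had 3 to 34 counts per library.

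C10orf10 (DEPP1) encodes a small FOXO-induced protein linked to autophagy, and it rose with dex in all 4 populations. Its shNS libraries held 27.5, 27.2 and 24.1 CPM in ethanol and 87.4, 95.6 and 109 CPM in dex, a 3.71-fold rise with no overlap (log2 1.89, SE 0.15, adjusted p = 5.25e-09, edgeR). The shG9a libraries held 37.2, 60.4 and 31.9 CPM in ethanol and 57.5, 88.0 and 76.9 CPM in dex. These overlap between groups, but each replicate rose, from 1.46-fold to 2.41-fold, and the log2 response was 0.79 (SE 0.15, adjusted p = 0.00153). Its adjusted p was 0.106 without replicate 3 and 0.0704 with only the groups compared. The response was 1.15 (SE 0.15, adjusted p = 2.6e-05) in shGLP and 1.34 (SE 0.16, adjusted p = 4.59e-06) in shHP1γ cells.

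The dex response of C10orf10 was smaller in shG9a than in shNS cells by 1.10 on the log2 scale, an interaction of -1.10 with SE 0.21 and adjusted p = 0.0436 (edgeR). That call was lost under 7 of the 11 alternatives, with an adjusted p of 0.619 without the replicate term and of 0.208, 0.491 and 0.227 without replicate 1, 2 and 3. It was the one member call among the interactions, in which 0.00984% of transcripts were called higher and 0.0787% lower for shG9a. In ethanol shG9a cells stood above shNS cells by 0.69 (SE 0.16, adjusted p = 0.0131), and in dex their difference was -0.41 (SE 0.14, adjusted p = 0.0778). The ethanol difference was 0.41 (adjusted p = 0.277) without replicate 2, which holds the library at 60.4 CPM, and its call was also lost without replicate 3 (adjusted p = 0.0636) and without the replicate term (adjusted p = 0.0863). Differences in response for shGLP (-0.74, adjusted p = 0.56) and shHP1γ (-0.55, adjusted p = 1.0) were not called, against background shares of 0.0197% higher and 0.0984% lower for shGLP and 0.0% higher and 0.0197% lower for shHP1γ.

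In dex, C10orf10 was lower than in shNS cells in shHP1γ cells (58.2, 58.7 and 68.5 CPM), at 63.7% ± 2.7 (SD, n = 3) of the shNS level with no overlap. That percentage is the mean of 3 ratios between libraries of the same number. The log2 difference was -0.66 (SE 0.14, adjusted p = 0.00821, edgeR), with adjusted p = 0.082 without the replicate term and 0.0917 without replicate 3. For shGLP (66.6, 81.1 and 67.6 CPM) it was -0.45 (SE 0.14, adjusted p = 0.0735). That difference was called under 4 of the alternatives, among them the fit with no filter.

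RASSF4, the gene that overlaps C10orf10, moved alongside it. RASSF4 NM_032023, named here after its values were seen, held 2.78, 4.05 and 3.49 CPM in ethanol-treated and 68.3, 69.9 and 73.7 CPM in dex-treated shNS cells (log2 4.37, SE 0.21, adjusted p = 4.08e-13, edgeR). In dex its log2 differences from shNS cells lay between -1.21 in shHP1γ and -0.85 in shGLP cells, and all 3 depletion differences were called. Across the 24 libraries the log2 CPM of the 2 transcripts had a Pearson r of 0.929, a description over libraries that share treatments. In ethanol C10orf10 was at 24.1 to 27.5 CPM in shNS cells while RASSF4 was at 2.78 to 4.05 CPM. With dex, mean C10orf10 went from 26.3 to 97.3 CPM and mean RASSF4 from 3.44 to 70.6 CPM in these cells. In the same order, the means went from 43.2 to 74.1 and from 4.47 to 35.5 CPM in shG9a cells. They went from 32.5 to 71.8 and from 5.74 to 39.3 CPM in shGLP cells. In shHP1γ cells they went from 24.6 to 61.8 and from 3.22 to 30.8 CPM. The part of RASSF4 reads in the C10orf10 values was not tested.

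**Figure D4:**
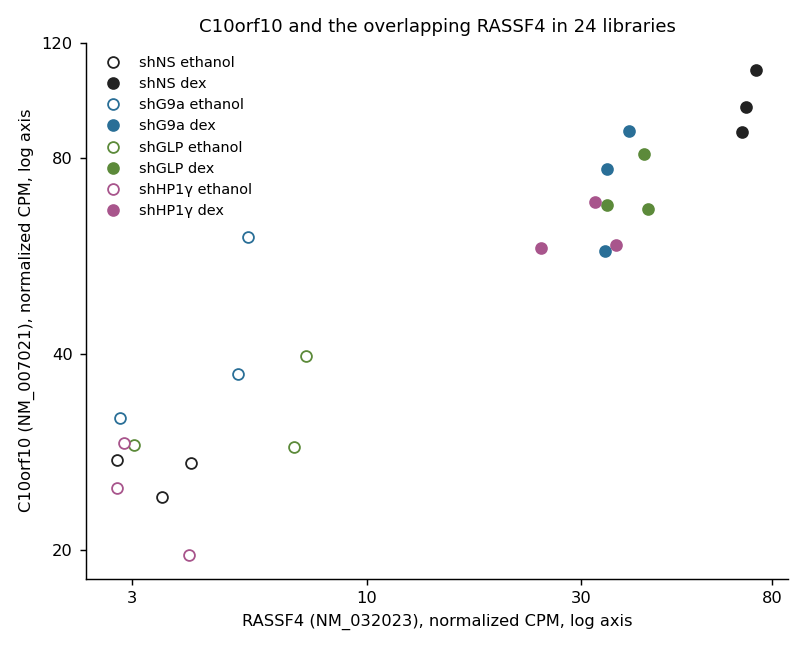
Normalized CPM of C10orf10 (y axis, log) against RASSF4 (x axis, log) in the 24 libraries, open circles for ethanol and filled circles for dex, colored by shRNA. The 3 shNS dex libraries lie at the upper right, with RASSF4 between 68.3 and 73.7 CPM, and the 3 open shG9a circles hold the highest C10orf10 value in ethanol, 60.4 CPM.

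Counted over the members, depletion in dex gave 1 higher and 1 lower transcript for shG9a (ARRDC4 and TXNIP NM_006472), 0 higher and 1 lower for shGLP (TXNIP NM_006472), and 1 higher and 2 lower for shHP1γ (ARRDC4, with TXNIP NM_006472 and C10orf10 lower). The background was 4.38% higher and 4.43% lower for shG9a, 3.31% and 2.46% for shGLP, and 2.55% and 1.54% for shHP1γ. With DESeq2 the share of calls that were higher was 47.1% in place of 57.4% for shGLP and 45.2% in place of 62.3% for shHP1γ. The medians of the 7 member transcripts were -0.28, -0.07 and -0.14 on the log2 scale, against 0.00, 0.03 and 0.03 over all transcripts.

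In ethanol, the 1 member call was C10orf10 in shG9a cells, against 1.59% of transcripts called higher and 2.13% lower. No member was called for shGLP (1.93% and 1.68% of all) or shHP1γ (1.62% and 1.29% of all), where edgeR's unadjusted p was under 0.05 for 1 and 0 of the 8. Higher calls made up 42.7% of the shG9a calls, and 56.8% with TMM factors.

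**Figure D5:**
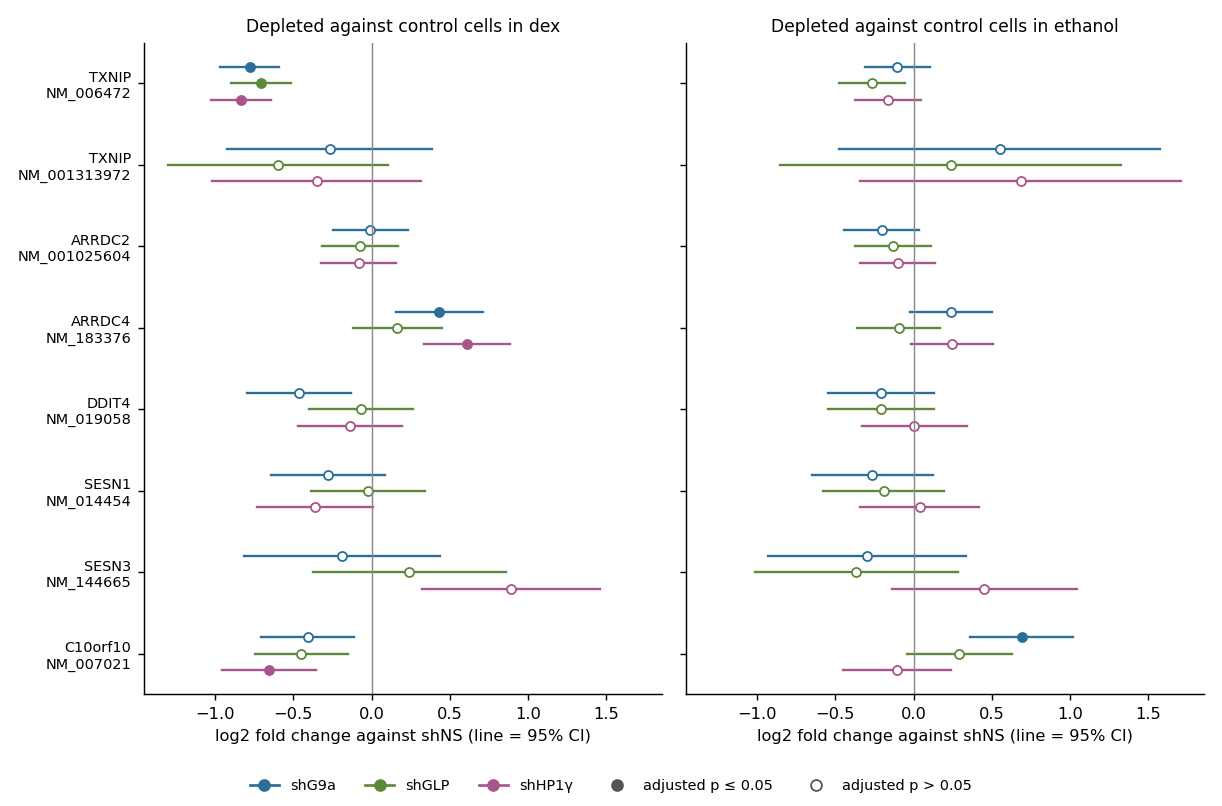
Log2 fold change of the 8 tested member transcripts in shG9a, shGLP and shHP1γ cells against shNS cells (x axis; lines are 95% intervals), in dex on the left and in ethanol on the right, filled where the adjusted p was at most 0.05. TXNIP NM_006472 is filled and left of 0 for all 3 shRNAs in dex, and in ethanol the one filled point is C10orf10 in shG9a cells.

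The partners of these proteins were read from lists written with earlier results of these data known. The counts below stand against 4.49% higher and 5.46% lower over all tested transcripts for dex in shNS cells, and in dex against 4.38% and 4.43% for shG9a, 3.31% and 2.46% for shGLP and 2.55% and 1.54% for shHP1γ. Among other arrestin-fold genes, 2 of 7 were tested, and VPS26B, a retromer subunit, rose by 0.64 (adjusted p = 0.00339) with dex in shNS cells and was lower by 0.47 in shG9a than in shNS cells in dex (log2 -0.47, adjusted p = 0.0364). Of 4 tested ubiquitin ligases that bind alpha-arrestins, 0 were called after dex in shNS cells, and WWP2 was at -0.57 (adjusted p = 0.0121) in shG9a cells in dex. In the list of the thioredoxin system, glucose transporters and the MondoA network, 10 transcripts of 9 genes were tested. With dex in shNS cells 2 were higher (MXD4, a MAX partner, by 0.79, and MLXIP by 0.36) and 3 lower, among them the glucose transporter SLC2A1 at -0.38 (adjusted p = 0.00929). In dex MLXIP was at -0.24 in shG9a cells and MXD4 at -0.44 in shGLP cells, while MXI1, another MAX partner, was at 1.20 in shHP1γ cells (adjusted p = 0.0071).

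Of the mTORC1, AMPK and amino acid sensing genes around DDIT4 and the sestrins, 28 transcripts of 26 genes were tested. With dex in shNS cells 2 were higher, the arginine sensor CASTOR1 (1.67, SE 0.13, adjusted p = 3.29e-09) and the autophagy kinase ULK1 (0.56), and 4 were lower, among them SESN2, the third sestrin (-0.64, SE 0.08, adjusted p = 6.08e-06). The list's median was -0.06. In dex the smallest adjusted p in the list belonged to the AMPK subunit PRKAB1 for shG9a (-0.28, adjusted p = 0.00206), to the GTPase RRAGD for shGLP (-0.72, adjusted p = 2.71e-08) and to DDIT4L, the paralog of DDIT4, for shHP1γ (1.23, adjusted p = 1.01e-07).

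Of 11 tested transcripts for PI3K, AKT and their brakes, 0 were higher and 2 lower with dex in shNS cells (4.49% and 5.46% of all transcripts), the AKT phosphatase PHLPP1 (-0.41, adjusted p = 4.66e-06) and the adaptor IRS2 (-0.28, adjusted p = 0.0372). IRS2 was higher than in shNS cells in dex-treated shGLP (0.35, adjusted p = 0.0119) and shHP1γ cells (0.47, adjusted p = 0.00126). For the pyruvate dehydrogenase switch around PDK4, 4 transcripts were tested and 1, DLAT of the dehydrogenase complex, was lower (-0.26, adjusted p = 0.00313). PDK3 was higher in dex-treated shHP1γ cells (0.30, adjusted p = 0.0368).

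Among FOXO factors and textbook FOXO targets other than the members, 25 transcripts of 22 genes were tested, and 7 were higher and 2 lower with dex in shNS cells (4.49% and 5.46% of all transcripts), with a median of 0.23. The smallest adjusted p values belonged to KLF2, a regulator of lymphocyte trafficking (3.79, SE 0.37, adjusted p = 1.23e-07), IL7R, the interleukin 7 receptor, which fell (-1.08, adjusted p = 7.62e-07), and the autophagosome protein MAP1LC3B (0.42, adjusted p = 0.00117). In dex 0 were higher and 4 lower in shG9a cells (KLF2 at -1.50, adjusted p = 0.00253), against 4.38% and 4.43% of all. In shGLP cells 0 were higher and 2 lower (MAP1LC3B at -0.33, adjusted p = 0.0153), against 3.31% and 2.46%, and in shHP1γ cells 0 were called, against 2.55% and 1.54%. Of 10 tested p53 targets, which include SESN2, 1 rose and 1 fell with dex in shNS cells, against 4.49% and 5.46% of all transcripts. BTG2, an antiproliferative gene, rose by 1.22 (adjusted p = 7.84e-09) and was lower in dex in shG9a (-0.74) and shGLP (-0.36) cells, and SESN2 was higher in dex in shHP1γ cells (0.39, adjusted p = 0.00488).

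Textbook GR targets are given as a description, since this list too was written with earlier results of these data known. Of 12 tested transcripts of 9 genes, 8 rose and 0 fell with dex in shNS cells, against 4.49% and 5.46% of all. They were led by TSC22D3 (3.48, adjusted p = 2.72e-13, edgeR), PER1 (1.25) and NFKBIA (1.09), with a list median of 1.10. In dex 4 were lower in shG9a, 5 lower and 1 higher in shGLP, and 2 lower in shHP1γ cells, with PER1 at -0.61 in shG9a, MT2A at -0.83 in shGLP and NFKBIA at -0.46 in shHP1γ cells.

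The transcripts whose log2 CPM followed each member most closely over the 24 libraries were named by Pearson r, as a description over libraries that share treatments. For TXNIP NM_006472 they were NFKBIA (0.943) and CYTH3 (0.942), for DDIT4 they were KLF9 (0.959) and LINC02691 (0.933), and for C10orf10, after RASSF4, EMP2 (0.927). ARRDC4, which fell with dex, was closest to KCNJ2 (0.908) and MEX3A (0.9). The members with no call had neighbors of lower r, PART1 (0.794) and SLC30A9 (0.78) for SESN1, CLK1 (0.765) and C21orf33 (0.756) for SESN3, and C20orf196 (0.65) and STK24-AS1 (0.618) for ARRDC2.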

How the data were processed

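RNA-seq was performed on 24 libraries of Nalm6 cells. The authors mapped paired-end reads with HISAT2 to the GRCh37 (hg19) build, and reads per RefSeq transcript were then counted by GenomicAlignments. The values deposited by the authors were read as raw counts per transcript, because they are whole numbers with differing totals although the table is named for CPM. Counting mode, strand and RefSeq release are not given in the sources used here. Rows of some genes were not used here.

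The fits used edgeR 4.0.16 under R 4.3.3. Transcripts with more than 1 CPM in at least 2 libraries were kept, upper quartile factors were applied, and a model of the 8 groups and the replicate number was fitted over all 24 libraries. Each contrast had a quasi-likelihood F test, with Benjamini-Hochberg adjustment over the 10167 tested transcripts. A call means an adjusted p of at most 0.05. The authors corrected for unwanted variation (RUV), a step whose variant is not stated, and the replicate number took its place. Normalized CPM were computed from the scaled library size, and errors are SD over 3 replicates unless SE, the error of a fitted log2 fold change, is named. The 3 replicates of a group were made on different days per the labels, which do not say whether libraries of the same number share a day. Percentages of the shNS level, fold ranges and counts per replicate pair libraries by number, so they assume that pairing. No replicates duplicated each other (chi-squared per degree of freedom 3.27 to 36.2). Counts give no molecule numbers. The intervals come from the quasi-likelihood test, so they include spread between replicates as well as counting error.

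Symbols were matched for 63745 of 64519 transcripts. The authors' table of fold changes and adjusted p values was used for its symbols only. Windows around start sites came from the RefSeq promoter table (GRCh38.p14) and were located in GRCh37 by exact match. The members and lists were chosen with earlier results of these data known. The text names all members and the genes targeted by the shRNAs. From each other list it names the 3 genes with the smallest adjusted p for dex in shNS cells and the 1 smallest for each depletion in dex, if called. It also names the 2 transcripts closest to each member by Pearson r. Alternatives were TMM factors, DESeq2 1.42.0, limma 3.58.1 on log2(CPM + 1), no filter, a mean of at least 5 CPM, no replicate term, only the groups compared, 1 accession per gene, and leaving out each replicate. In the fit with no filter, p values followed a normal tail of the estimate over its SE. An example is PIK3IP1 after dex in shNS cells (4.28, SE 1.85, unadjusted p = 0.0205, edgeR). A transcript's own spread between replicates then counts for little, so calls gained in that fit add no separate evidence. The fitting was tested on simulated data.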

Additional observations from a re-analysis of the deposited data

Results flagged for a closer look

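The dex response of C10orf10 differed between shG9a and shNS cells by the interaction term (log2 -1.1, SE 0.21, adjusted p = 0.0436, edgeR), the one interaction called among the members. The response was 1.89 in shNS and 0.79 in shG9a cells, and it was smaller in the shG9a cells in 3 of 3 replicates. Over the 11 alternatives the interaction ran from -1.17 to -0.95 and its adjusted p from 2.15e-09 to 0.619, above 0.05 under 7 of them. The interaction of TXNIP NM_006472 with shG9a lay just past the limit (-0.67, adjusted p = 0.0549, edgeR) and was called under 5 of the 11. RASSF4, which shares 695 exonic bases with C10orf10, had an interaction of -1.36 with shG9a (adjusted p = 0.164), and its part in the C10orf10 value was not tested.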

How the results depend on the processing

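No called member changed direction under any of the 11 alternatives. The rise of TXNIP NM_006472, DDIT4 and C10orf10 with dex in shNS, shGLP and shHP1γ cells, and the lower TXNIP NM_006472 in dex in the 3 depleted populations, passed the test under all 11. The numbers of member transcripts called, TXNIP NM_001313972 left out, moved by more than 1.5 times as follows, and the cause was not tested. With no filter on low counts they were 4 in place of 2 for shG9a in dex, 2 in place of 1 for shGLP in dex, 1 in place of 0 for shGLP in ethanol, and 2, 1 and 1 in place of 1, 0 and 0 for the interactions with shG9a, shGLP and shHP1γ. All transcripts gave 834, 561 and 381 calls of 24375 for the first 3, in place of 895, 587 and 367 of 10167. For the interactions all transcripts gave 63, 23 and 31 calls in place of 9, 12 and 2. With only the groups compared the member numbers were 2 in place of 4 for dex in shG9a cells, 2 for shGLP in dex, 1 for shGLP in ethanol, and 0 and 2 for the interactions with shG9a and shGLP. Over all transcripts, calls for dex in shG9a cells then fell from 634 of 10167 to 125 of 9127. They rose from 587 to 1176 of 9256 for shGLP in dex and from 367 to 803 of 9195 for shGLP in ethanol. Interaction calls went from 9 to 2 of 9626 for shG9a and from 12 to 107 of 9742 for shGLP. With DESeq2 the member numbers were 2 for shGLP in dex and 2 and 1 for the interactions with shG9a and shHP1γ. Calls over all 10167 transcripts were then 573, 18 and 18. The interaction with shG9a gave 2 member calls with TMM factors or 1 accession per gene and 0 with limma. Its calls over all transcripts were 12, 12 and 8 in that order. Other member counts moved by at most 1 call, such as 4 in place of 3 for dex in shGLP cells with DESeq2, limma, no filter or only the groups compared. All transcripts gave 370, 366, 359 and 820 calls in those settings, in place of 334.

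Deviations of same-numbered libraries from their group means correlated between 0.0051 and 0.588 (61 of 84 pairs over 0.1), and 23 of 24 libraries correlated best with their own number, a hint from the data and not from the design. Without the replicate block the member counts were 3 in place of 4 for dex in shG9a cells, 2 in place of 3 for shHP1γ in dex, 1 for shG9a in dex, 0 for shG9a in ethanol and 0 for the interaction with shG9a. In the same order, calls over all 10167 transcripts were 227, 175, 320, 112 and 2. With the block they were 634, 416, 895, 379 and 9. Leaving the block out ended 5 member calls, those of ARRDC4 for dex in shG9a cells and for shG9a in dex, and of C10orf10 for shHP1γ in dex, shG9a in ethanol and the shG9a interaction, and it changed no other call of a member. Leaving out 1 replicate gave 2 to 4 member calls for dex in shG9a cells, 1 to 2 for shG9a in dex, 1 to 2 for shGLP in dex, 1 to 3 for shHP1γ in dex, 0 to 1 for shG9a in ethanol and 0 to 0 for the interaction with shG9a. All transcripts gave 156 to 753, 166 to 918, 165 to 486, 63 to 396, 28 to 284 and 0 to 4 calls. SESN3, PDK4 and PIK3IP1 held no more than 73, 14 and 4 counts per library.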
